A study of Bos grunniens with 24 samples.

Results

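OLFM4, IGF2BP3, WNT10A and MACC1, 4 genes tied to the intestinal crypt and to epithelial growth, were taken by their symbols from an RNA sequencing table of 639 genes in the jejunum of yak calves (Bos grunniens). They are 4 of the 240 genes in the table that carry a symbol, each has 1 row, and all 4 passed the filter on low counts. The table lists genes that the authors called in at least 1 comparison of their groups, so each of the 4 was already known to differ somewhere. Each group had 8 libraries: PET, given Pediococcus pentosaceus NQ0729, a lactic acid bacterium, and then challenged with enterotoxigenic Escherichia coli; ETEC, given the same E. coli challenge without the pretreatment; and CON, the control group. The labels name neither dose, time after challenge, age nor sex, and they do not tie the samples to named animals. The p-values therefore measure only how these samples vary, which may be in part technical.

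The small intestine renews its lining from stem cells at the base of the crypts, and WNT signals from neighbouring cells keep those stem cells dividing. OLFM4, olfactomedin 4, is a secreted glycoprotein used as a marker of crypt base stem cells in human intestine, and it is also stored in granules of some human neutrophils. IGF2BP3 is an RNA-binding protein that binds insulin-like growth factor 2 mRNA, among others, and is far more abundant in fetal than in most adult tissues. WNT10A is a secreted WNT ligand, best known from skin, hair and teeth. MACC1 is a regulator of MET, the receptor of hepatocyte growth factor, and was first described in human colon cancer. In the authors' table OLFM4 (ENSBGRG00000006393) lies on the plus strand of chromosome 15 from 73778820 to 73808054, WNT10A (ENSBGRG00000000672) on the minus strand of chromosome 2 from 32771404 to 32785480, and IGF2BP3 (ENSBGRG00000000352) and MACC1 (ENSBGRG00000001496) on the plus strand of chromosome 4, from 95852837 to 96005322 and from 99177453 to 99688892. The genome build behind these positions is not given in the sources used here.

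Some libraries stand apart within their group. Counts summed over the listed genes were 475295 to 1209769 per PET library, 466708 to 863801 per ETEC library and 299776 to 826249 per CON library. Over 7 Y-linked loci, PET-8 had 1 count, ETEC-8 and every CON library had 0, and the other challenged libraries had between 3383 and 11382, so control status and absence of Y-linked RNA cannot be told apart. In 10 libraries a weighted sum of a pair of other libraries left under 0.8 of the residual of the best single other library. These are PET-1 to PET-3, ETEC-1 to ETEC-4 and CON-1 to CON-3, called close to a sum here. Their ratios were 0.248 to 0.766, against 0.851 to 1 in the other 14. The ratio measures the gain over a single library, not closeness itself, and this gain was least in PET-1 (0.766) and ETEC-2 (0.733). OLFM4 and IGF2BP3 follow these sums more closely than the low genes do. OLFM4 lay between its source libraries in 10 of these 10 libraries and at 0.834 to 1.17 times their weighted mean. For IGF2BP3 the ratio was 0.929 to 1.09 (between its sources in 8 of 10), for WNT10A 0.353 to 1.65 (7 of 10) and for MACC1 0.839 to 1.40 (6 of 10). Tests over 8 libraries per group count these 10 as independent, and results over the other 14 are therefore given beside them. The labelled tissue was jejunum, and 18 of 39 enterocyte brush border markers are in the table, among them aminopeptidase N (ANPEP) at 7.41 to 1374 FPKM in PET.

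Per length of gene, OLFM4 was the most abundant of the 4, with a mean of 130.1 FPKM (fragments scaled by gene length and sequencing depth) over the 24 libraries and rank 5 among the 240 genes with a symbol. IGF2BP3 followed at 9.06 FPKM and rank 60. MACC1 at 0.555 FPKM and WNT10A at 0.529 FPKM, ranks 194 and 197, were low and close to each other. In the comparison of PET with ETEC, 3 of the 4 passed an adjusted p under 0.05, and 3 of the 4 also did so in PET against CON. The authors' deposited table calls neither OLFM4, IGF2BP3, WNT10A nor MACC1 in PET vs ETEC. Its adjusted p there are 0.0891, 0.0782, 0.0421 and 0.289, in that order. WNT10A, with a deposited log2 fold change of 0.945, was thus not called at an adjusted p of 0.0421. The authors' calls therefore do not rest on an adjusted p under 0.05 alone, unlike those made here. In PET vs CON it calls OLFM4 and IGF2BP3 lower and WNT10A higher (adjusted p = 0.0307, 0.0228 and 0.00147). The background in this table of called genes is high. Of the 577 genes tested, 47% passed in PET vs ETEC, while 41.4% did so in PET vs CON. A count of 3 in 4 is thus not far from what the table shows at large. The p-values were adjusted over these listed genes alone, so they do not control the error rate over all genes. For OLFM4 in PET vs ETEC the unadjusted p was 0.00584 by edgeR and 0.00659 in the authors' table. The adjusted p were 0.0162 and 0.0891. In ETEC vs CON 0 of the 4 passed with edgeR's quasi-likelihood test, against 70.9% of all genes tested, 29.6% higher and 41.2% lower in ETEC. None of the 4 had an unadjusted p under 0.05 there (0 of 4), DESeq2 also called 0, and limma voom called 2, WNT10A and MACC1. For each of the 4 genes the groups overlapped in FPKM in every comparison, while 2.77% of the genes tested had no overlap in PET vs ETEC, 4.16% in PET vs CON and 12.3% in ETEC vs CON. The 3 comparisons share libraries, so their values are set side by side and not counted as separate evidence. The median log2 fold change of the 4 was -0.88 in PET vs ETEC, against 0.45 over all genes tested, and -0.41 in PET vs CON, against 0.41. In ETEC vs CON it was 0.28, against -0.63.

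**Figure D1:**
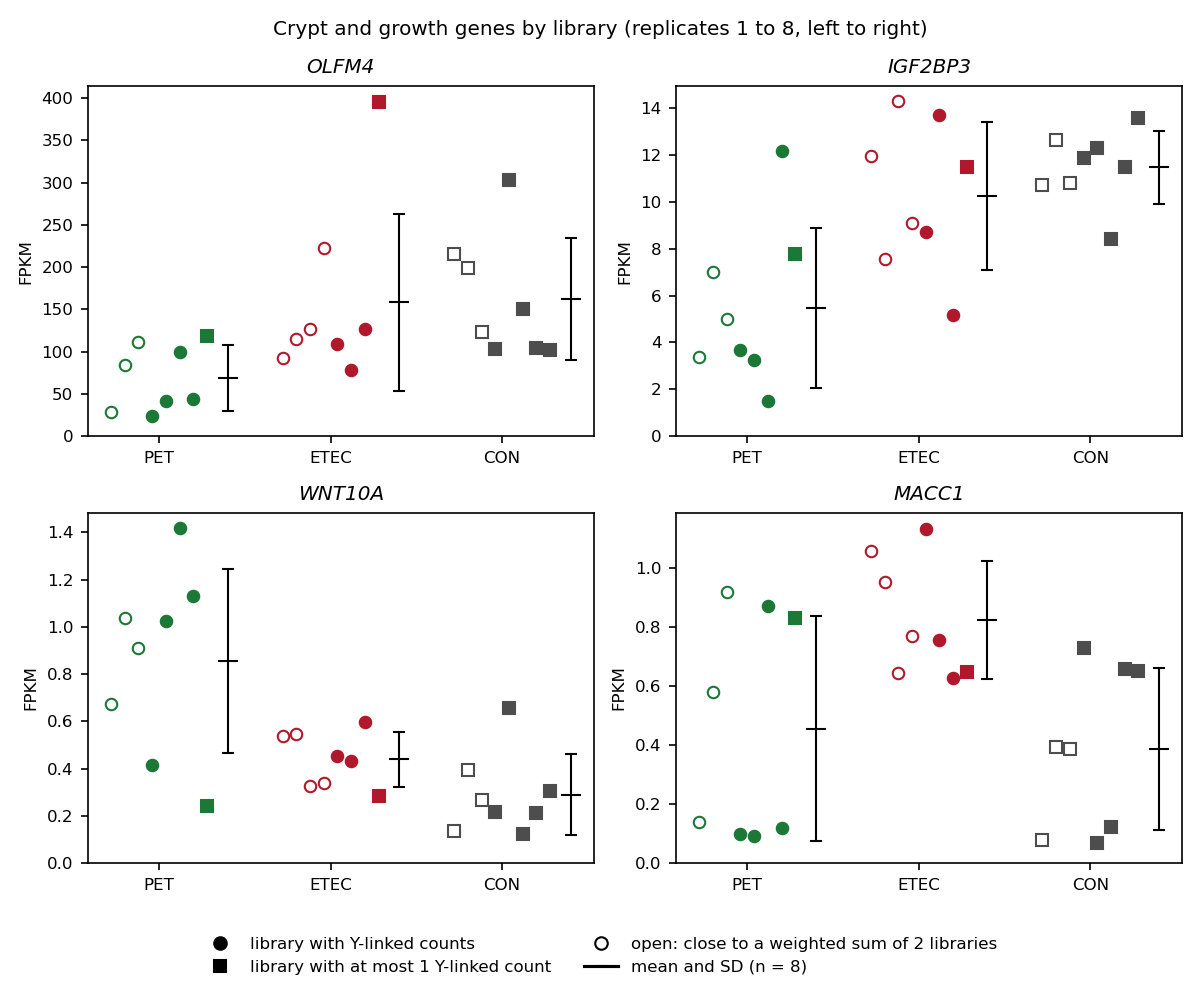
FPKM of OLFM4, IGF2BP3, WNT10A and MACC1 in each of 24 libraries, with PET, ETEC and CON from left to right. Squares are libraries with at most 1 Y-linked count, open symbols are libraries close to a weighted sum of 2 others, and bars are the mean and SD of 8 libraries. On average OLFM4 and IGF2BP3 are lowest in PET and WNT10A is highest there, while MACC1 splits into low and high libraries in PET and CON and stays at 0.627 FPKM or more in ETEC.

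OLFM4 was lower in PET than in either other group. It ranged from 23.7 FPKM (PET-4) through a median of 64.2 to 119 FPKM (PET-8) in PET, from 78.7 (ETEC-6) through 121 to 396 FPKM (ETEC-8) in ETEC, and from 102 (CON-8) through 137 to 303 FPKM (CON-5) in CON. The ranges overlap, yet 4 PET libraries lay below all ETEC libraries and 6 lay below all CON libraries. The means were 69.2 ± 38.7 FPKM in PET, 158 ± 105 in ETEC and 163 ± 71.8 in CON (SD, n = 8 each). OLFM4 fell by 1.19 on the log2 scale in PET vs ETEC (SE 0.40, adjusted p = 0.0162 by edgeR's quasi-likelihood test, as for every adjusted p below unless another tool is named). In the same comparison 11.1% of all genes tested were lower in PET. It fell by 1.23 in PET vs CON (SE 0.40, adjusted p = 0.0168), where 15.3% of genes tested were lower. In bulk tissue fewer cells that make a transcript and less of it per cell cannot be told apart.

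The challenge alone gave no call for OLFM4. The log2 fold change in ETEC vs CON was -0.04 with an approximate 95% interval of -0.80 to 0.73 (adjusted p = 0.936). The sign of this fold change depends on the scaling: with TMM it was 0.62 (adjusted p = 0.223). One library carries much of the ETEC spread. ETEC-8, the ETEC library without Y-linked counts, held 396 FPKM, ETEC-4 held 222, and the other 6 ETEC libraries held 78.7 to 127. ETEC-4 lies close to a sum in which ETEC-8 had 51.9% of the weight. Without ETEC-8 the log2 fold change in PET vs ETEC was -0.85 and did not pass (adjusted p = 0.0632). With PET-8 and ETEC-8, the challenged libraries lacking Y-linked counts, left out, it still passed (adjusted p = 0.0296). That fit kept PET-3, ETEC-3 and ETEC-4, which lie close to sums with PET-8 or ETEC-8, so it is not free of their profiles. In PET the library without Y-linked counts, PET-8 at 119 FPKM, was also the highest, above 23.7 to 112 in the other 7. Fitted on only the other 14 libraries, the differences were of like size and did not pass: -1.43 in PET vs ETEC (adjusted p = 0.157) and -1.22 in PET vs CON (adjusted p = 0.202). The PET vs CON call was also lost with TMM (-0.86, adjusted p = 0.114).

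Cell types other than crypt cells that could carry OLFM4 were read from their markers. Of 21 neutrophil markers 3 are in the table (LTF, MPO and MMP9), none at 0 in any library, and their summed level was 0.893 to 107 FPKM in PET, 8.03 to 34.0 in ETEC and 24.9 to 76.3 in CON. In ETEC-8, with the most OLFM4, the sum was 14.9 FPKM, below the ETEC median of 24.5. In PET-4, with the least OLFM4, it was 24.3 FPKM, close to the PET median of 23.1. MMP9 makes up most of this sum, with a CON mean of 46.7 FPKM against 0.946 for LTF and 0.574 for MPO. The sum thus says little about LTF and MPO. By group, LTF was highest in PET-5 (1.27 FPKM), ETEC-4 (0.491) and CON-5 (1.89), and MPO in PET-5, ETEC-2 and CON-6. CON-5 also had the most OLFM4 in CON. Of the 3, LTF (lactoferrin, a granule protein) and MPO (myeloperoxidase) fell in ETEC vs CON, and 0 passed in PET vs ETEC or PET vs CON. With TMM only LTF fell in ETEC vs CON, MPO having an adjusted p of 0.119, and LTF also fell in PET vs CON (adjusted p = 0.0210). IGHM, the heavy chain of immunoglobulin M and the only B and plasma cell marker in the table, moved with OLFM4 between groups. It was at 1399 ± 320.5 FPKM in PET, 2723 ± 839 in ETEC and 2891 ± 1340 in CON (SD, n = 8 each), with a log2 fold change of -0.96 in PET vs ETEC (adjusted p = 0.00682) and -1.05 in PET vs CON (adjusted p = 0.00411). With group means removed, its correlation with OLFM4 over the 24 libraries was 0.04. The part of IGHM-bearing cells or of neutrophils in the OLFM4 difference was not tested.

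IGF2BP3 was likewise lower in PET. It ranged from 1.51 FPKM (PET-6) through a median of 4.35 to 12.2 FPKM (PET-7) in PET, from 5.19 (ETEC-7) through 10.3 to 14.3 FPKM (ETEC-3) in ETEC, and from 8.41 (CON-6) through 11.7 to 13.6 FPKM (CON-8) in CON. PET-7 is the exception within its group: the other 7 PET libraries, at 1.51 to 7.78 FPKM, lay below every CON library, and 5 PET libraries lay below every ETEC library. The coefficient of variation was 62.0% in PET, 30.6% in ETEC and 13.6% in CON, whose libraries were the most even. The means were 5.47 ± 3.39 FPKM in PET, 10.2 ± 3.14 in ETEC and 11.5 ± 1.56 in CON (SD, n = 8 each).

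The fall of IGF2BP3 was 1.07 on the log2 scale in PET vs CON (log2 fold change -1.07, SE 0.33, adjusted p = 0.0133) and 0.90 in PET vs ETEC (log2 fold change -0.90, SE 0.33, adjusted p = 0.0261). In ETEC vs CON it had a log2 fold change of -0.16 with an approximate 95% interval of -0.80 to 0.47 (adjusted p = 0.653). With TMM this fold change was 0.41 (adjusted p = 0.344). The PET vs ETEC call is the less secure: its adjusted p was 0.0535 without ETEC-3, 0.0532 without PET-1, 0.0510 without PET-4, 0.0508 without PET-5 and 0.0596 in a fit of these groups alone. Fitted on only the other 14 libraries, the log2 fold change was -0.78 in PET vs ETEC (adjusted p = 0.373) and -1.02 in PET vs CON (adjusted p = 0.246). The PET vs CON call was kept by each fit that left out 1 library (24 of 24), though fits without an ETEC library hardly move this fold change. It was lost with DESeq2 size factors in edgeR (-0.95, adjusted p = 0.0527).

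WNT10A went the other way and was higher in PET. It ranged from 0.243 FPKM (PET-8) through a median of 0.969 to 1.42 FPKM (PET-6) in PET, from 0.283 (ETEC-8) through 0.442 to 0.599 FPKM (ETEC-7) in ETEC, and from 0.124 (CON-6) through 0.242 to 0.657 FPKM (CON-5) in CON. In 6 of 8 PET libraries WNT10A lay above every ETEC library, and the same number lay above every CON library. The levels rest on few reads, 14 to 81 counts per PET library, 18 to 38 per ETEC library and 6 to 32 per CON library. In CON-6 the 6 counts allow 0.0456 to 0.271 FPKM, and in PET-6 the 81 counts allow 1.13 to 1.76 FPKM (exact 95% Poisson intervals, which cover counting error only). The means were 0.857 ± 0.389 FPKM in PET, 0.440 ± 0.116 in ETEC and 0.290 ± 0.173 in CON (SD, n = 8 each).

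WNT10A rose by 1.56 on the log2 scale in PET vs CON (SE 0.36, adjusted p = 0.00214), where 26.2% of genes tested were higher in PET. In PET vs ETEC it rose by 0.96 (SE 0.35, adjusted p = 0.0272), where 35.9% were higher. The PET vs ETEC call was lost with TMM (0.46, adjusted p = 0.368), with DESeq2 size factors in edgeR (0.64, adjusted p = 0.182), with limma on log2(FPKM + 0.1) (0.72, adjusted p = 0.0617), with the replicate number as a block (0.88, adjusted p = 0.0581), without ETEC-3 (adjusted p = 0.0507), without ETEC-8 (0.0505) and without PET-6 (0.0628). In ETEC vs CON the log2 fold change was 0.60 with an approximate 95% interval of -0.10 to 1.29 (adjusted p = 0.125). It passed with TMM (1.27, adjusted p = 0.0116), with limma voom (0.74, adjusted p = 0.0249) and without CON-5 (0.88, adjusted p = 0.0299). Fitted on only the other 14 libraries, WNT10A was at 1.47 in PET vs CON (adjusted p = 0.142) and at 0.94 in PET vs ETEC (adjusted p = 0.304).

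Within PET and within ETEC, the library lacking Y-linked counts had the least WNT10A. PET-8, with 0.243 FPKM, was the lowest PET library, below 0.415 to 1.42 in the other 7, and ETEC-8, with 0.283 FPKM, was the lowest ETEC library, below 0.327 to 0.599 in the other 7. All CON libraries also lack Y-linked counts, yet CON-5 among them held 0.657 FPKM, above every ETEC library. In the comparisons with CON, the group and the Y-linked counts cannot be told apart for WNT10A. With PET-8 and ETEC-8 left out, the log2 fold change was 1.03 in PET vs ETEC (adjusted p = 0.0166), a comparison of libraries that all carry Y-linked counts. That fit is not free of the profiles left out. In the sums fitted, PET-8 had 54.6% of the weight for PET-3, and ETEC-8 had 51.9% for ETEC-4 and 19.7% for ETEC-3.

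MACC1 did not pass in any of the 3 comparisons (0 of 3), although its level spread widely between the libraries of PET and of CON. In ETEC it was even, from 0.627 FPKM (ETEC-7) through a median of 0.762 to 1.13 FPKM (ETEC-5), on 163 to 378 counts. In PET it ranged from 0.0912 (PET-5) through 0.359 to 0.919 FPKM (PET-3), and in CON from 0.0672 (CON-5) through 0.390 to 0.729 FPKM (CON-4). The highest value was 10.1 times the lowest in PET, 1.81 times in ETEC and 10.9 times in CON. The means were 0.456 ± 0.381 FPKM in PET, 0.824 ± 0.199 in ETEC and 0.386 ± 0.274 in CON (SD, n = 8 each).

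For MACC1 the log2 fold change was 1.09 in ETEC vs CON (SE 0.55, adjusted p = 0.0743), -0.85 in PET vs ETEC (SE 0.55, adjusted p = 0.212) and 0.24 in PET vs CON (SE 0.55, adjusted p = 0.753). In 5 of 8 ETEC libraries it lay above every CON library. The authors' deposited table calls MACC1 higher in ETEC than in CON, with a log2 fold change of 1.16 and an adjusted p of 0.0189. It passed here with limma voom (1.49, adjusted p = 0.00229), with limma on log2(FPKM + 0.1) (1.15, adjusted p = 0.0258), in a fit of ETEC and CON alone (1.09, adjusted p = 0.0321) and, narrowly, without CON-4 (1.29, adjusted p = 0.0491). It did not pass with TMM (1.54, adjusted p = 0.0572). Fitted on only the other 14 libraries it did not pass either, at 0.83 with edgeR (adjusted p = 0.411) and 0.50 with limma voom (adjusted p = 0.545). On those libraries edgeR gave MACC1 -0.97 in PET vs ETEC (adjusted p = 0.452) and, with the sign reversed, -0.15 in PET vs CON (adjusted p = 0.904).

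**Figure D2:**
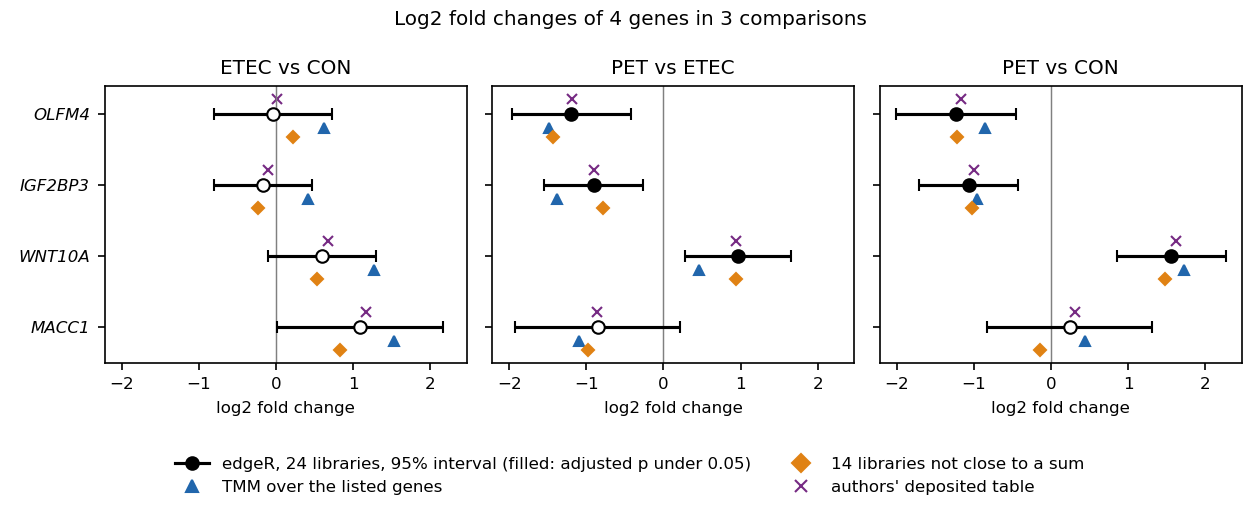
Log2 fold changes of the 4 genes in ETEC vs CON, PET vs ETEC and PET vs CON. Circles are edgeR estimates over 24 libraries with approximate 95% intervals (normal error), filled where the adjusted p is under 0.05. Triangles are TMM scaling, diamonds the 14 libraries not close to a sum, and crosses the authors' deposited table. OLFM4 and IGF2BP3 lie below 0 and WNT10A above 0 in both comparisons of PET. In ETEC vs CON the intervals of OLFM4, IGF2BP3 and WNT10A include 0. That of MACC1 just leaves out 0 because the intervals are slightly too narrow. The test itself gave MACC1 an unadjusted p of 0.0586 there (adjusted p = 0.0743).

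The level of MACC1 ran against that of the enterocyte brush border genes, library by library. The geometric mean of the 18 brush border markers in the table was 1.61 FPKM in PET-8, 1.65 in PET-3 and 1.86 in PET-6, and MACC1 stood at 0.830, 0.919 and 0.870 FPKM in these libraries. In PET-2 the brush border level was 10.3 FPKM and MACC1 0.580 FPKM, and in PET-7, PET-4, PET-1 and PET-5, with 13.4 to 54.0 FPKM of brush border genes, MACC1 was at 0.0912 to 0.138 FPKM. All 8 ETEC libraries had 1.45 to 1.99 FPKM of brush border genes, and all 8 had at least 0.627 FPKM of MACC1. In CON the pattern was the same: CON-4, CON-8 and CON-7 had 1.67, 1.68 and 1.91 FPKM of brush border genes with 0.729, 0.652 and 0.659 FPKM of MACC1. CON-3 had 10.96 with 0.388 FPKM, CON-6 had 11.9 with 0.124, CON-2 had 17.6 with 0.393, CON-1 had 28.1 with 0.0800 and CON-5 had 32.6 with 0.0672. The libraries at intermediate MACC1, PET-2, CON-2 and CON-3, are 3 of those close to a sum of 2 others. Since the libraries form separate sets by the brush border level, no correlation coefficient with it is given over all of them.

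OLFM4 related to the same brush border level in opposite orders in PET and CON. In PET the libraries with the least brush border expression had the most OLFM4, 119 FPKM in PET-8, 112 in PET-3 and 99.5 in PET-6. PET-2 had 83.9, PET-7 had 44.5, PET-4 had 23.7, PET-1 had 29.1 and PET-5 had 41.9 FPKM. In CON the libraries with the least brush border expression had the least OLFM4, 104 FPKM in CON-4, 102 in CON-8 and 104 in CON-7, and OLFM4 was higher at each further step: 123 in CON-3, 150.1 in CON-6, 199 in CON-2, 215 in CON-1 and 303 FPKM in CON-5. This difference between the groups was seen after the values were known and was not tested. CON-1, CON-2 and CON-3 are close to sums of other CON libraries, and PET-1, PET-2 and PET-3 to sums of other PET libraries. OLFM4 lay between its sources in each of them, so their places in these orders are not independent of the other libraries. IGF2BP3 and WNT10A showed no such order: PET-6, PET-3 and PET-8, all low in brush border genes, held 1.51, 5.01 and 7.78 FPKM of IGF2BP3 and 1.42, 0.913 and 0.243 FPKM of WNT10A.

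**Figure D3:**
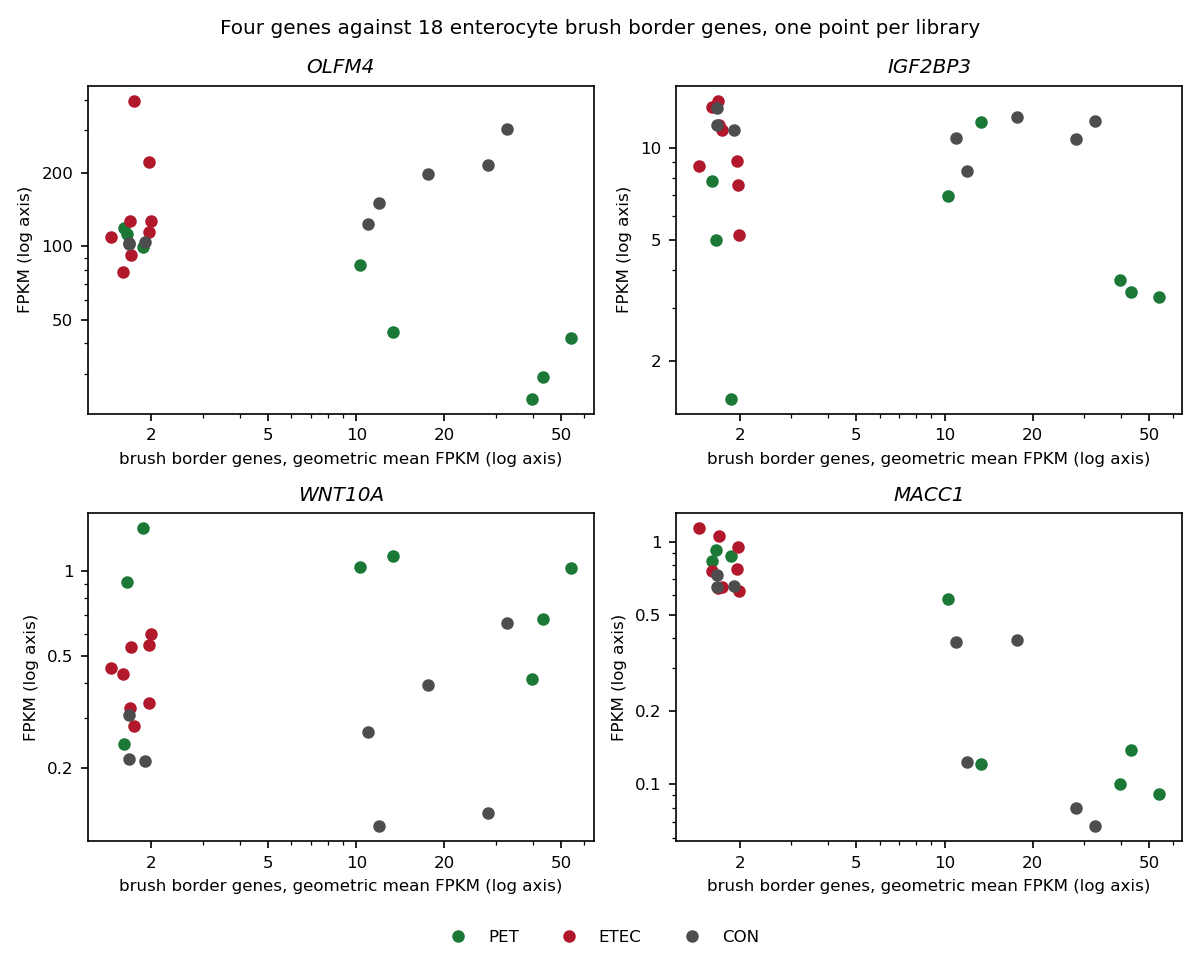
FPKM of each of the 4 genes (vertical, log axis) against the geometric mean FPKM of 18 enterocyte brush border genes (horizontal, log axis), with 1 point per library, PET in green, ETEC in red and CON in grey. MACC1 is at 0.627 FPKM or more in every library with a brush border level below 2 FPKM. Where that level is above 10 FPKM, OLFM4 is at 23.7 to 83.9 FPKM in PET libraries and at 123 to 303 FPKM in CON libraries.

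Of 18 ileum and colon markers 7 are in the table, with a summed level of 6.92 to 504 FPKM in PET, 5.39 to 9.05 in ETEC and up to 1073 in CON, with medians of 63.3 in PET, 7.10 in ETEC and 78.4 in CON. Of 12 markers of duodenum and proximal gut only the transcription factor ONECUT2 is in the table, at 6.22 ± 5.55 FPKM in PET, 10.3 ± 1.79 in ETEC and 3.97 ± 3.25 in CON (SD, n = 8 each). ONECUT2 did not pass in any comparison, with adjusted p of 0.397 in PET vs ETEC, 0.0671 in ETEC vs CON and 0.451 in PET vs CON. The labels do not give the position along the gut, and its part in the levels of MACC1 and OLFM4 was not tested.

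With group means removed, none of the 3 relations among OLFM4, IGF2BP3 and WNT10A passed. Over the 14 libraries that are no such sum, OLFM4 and IGF2BP3 had a Pearson r of -0.04 and a Spearman rho of 0.03 (permutation p within groups 0.928 and 0.935), OLFM4 and WNT10A 0.04 and 0.12 (permutation p 0.913 and 0.712), and IGF2BP3 and WNT10A -0.26 and -0.19 (permutation p 0.519 and 0.566). Adjusted over 6 pairs, the p for r was 0.928 for each of these. Without the libraries farthest from the median of the first gene (ETEC-8 and CON-5 for OLFM4, PET-6 and PET-7 for IGF2BP3), r was -0.17, -0.08 and -0.34. The 3 pairs with MACC1 are counted among the 6 but not read as relations, because the libraries form separate sets by its level.

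The patterns of other genes in the table were set against each member by the Pearson correlation of log2(FPKM + 0.1) over the 24 libraries, given as a description because libraries share sources and groups. MACC1 had close company: SLC46A1, the proton-coupled folate transporter (r = 0.95), SLC45A2, a membrane transporter known from pigment cells (0.94), the transcription factor PITX1 (0.93), the threonyl-tRNA synthetase TARS1 (0.93) and the proton channel OTOP3 (0.92). Over those 14 libraries these correlations were 0.92 to 0.95, and with group means removed 0.90 to 0.93. PET and CON each hold sets of low and high MACC1 libraries, and removing group means leaves that split in place. These r are therefore not read as relations within the sets. SLC46A1 stood at 39.8 to 55.7 FPKM in PET-8, PET-3 and PET-6 and at 5.32 to 30.6 in the other PET libraries. TARS1, PITX1, SLC45A2 and SLC46A1 rose in ETEC vs CON (adjusted p = 0.0102, 0.0456, 0.0230 and 0.0190), and OTOP3 did not pass (0.0684, and 0.0450 with TMM). Fitted on only the other 14 libraries, no call given here for a gene outside the 4 passed, save that of the Y-linked USP9Y in PET vs CON. The nearest was PAPPA2 in ETEC vs CON (2.36, adjusted p = 0.0531).

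**Figure D4:**
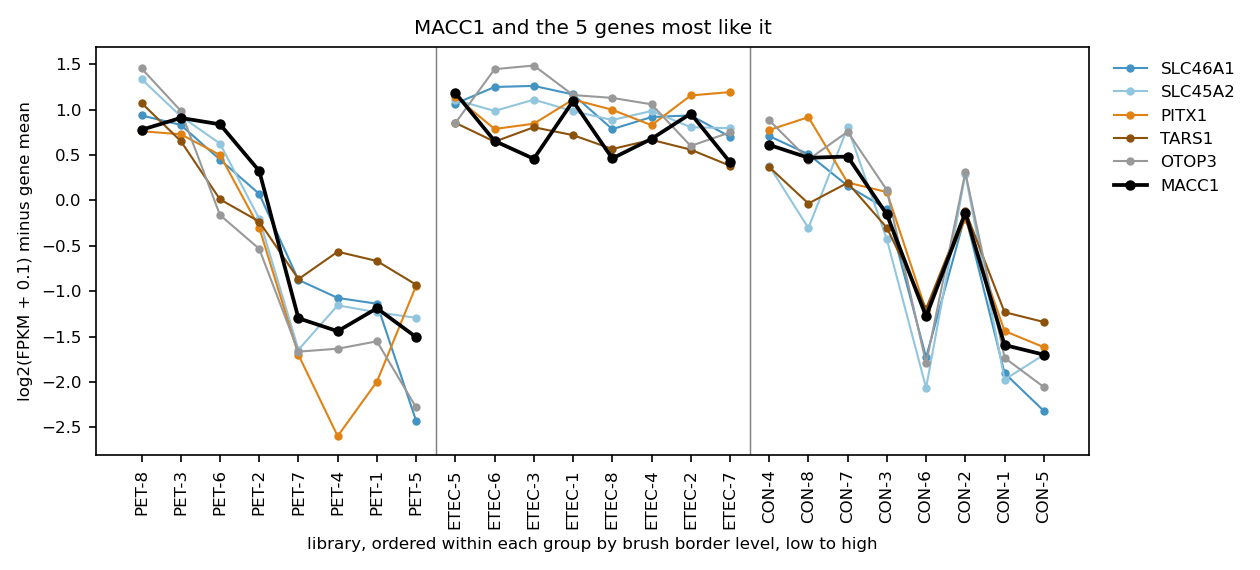
Log2(FPKM + 0.1) minus the gene's mean over 24 libraries (vertical) for MACC1 (black) and the 5 genes most like it, with libraries ordered within PET, ETEC and CON by the level of brush border genes from low to high. All 6 genes are high in the 8 ETEC libraries and fall off along the PET and CON libraries, and CON-2 stands out upwards among the CON libraries with high brush border expression.

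OLFM4 was most like ZBTB16, a zinc finger transcription factor (r = 0.77, and 0.68 with group means removed). ZBTB16 was at 3.16 FPKM in ETEC-8 and 1.73 in ETEC-4, the libraries with the most OLFM4, and at 0.654 to 1.20 in the other 6 ETEC libraries. It fell by 0.83 on the log2 scale in PET vs ETEC (adjusted p = 0.0445) and by 1.46 in PET vs CON (adjusted p = 0.00216). The muscle-type carbonic anhydrase CA3 (r = 0.51), the neurofilament NEFM (0.48), IGF2BP3 (0.48) and IGHM (0.46) came next. The genes most like IGF2BP3 were the natural killer cell receptor KLRF1 (r = 0.67), DDAH1, which breaks down asymmetric dimethylarginine (0.51), the mucin glycosyltransferase B3GNT6 (0.50), OLFM4 (0.48) and C10orf82 (0.42). With group means removed these were 0.04 to 0.31, so most of the likeness lies between the groups. KLRF1 stood at 0.692 ± 0.305 FPKM in PET, 1.34 ± 0.314 in ETEC and 1.90 ± 0.368 in CON (SD, n = 8 each).

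The gene most like WNT10A was the Y-linked ubiquitin protease USP9Y (r = 0.70, and 0.54 with group means removed), which is listed at 0 in PET-8, ETEC-8 and every CON library. TREM2, a macrophage receptor (r = 0.62), PAPPA2, a protease that cleaves insulin-like growth factor binding proteins (0.57), EREG, the EGF receptor ligand epiregulin (0.54), and CCDC42 (0.52) followed. TREM2 was at 3.00 ± 0.760 FPKM in PET, 2.60 ± 0.623 in ETEC and 1.48 ± 0.382 in CON (SD, n = 8 each), and it rose in ETEC vs CON (adjusted p = 0.00633) and in PET vs CON (adjusted p = 0.00214). In PET vs ETEC its adjusted p was 0.509.

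The pathways around the 4 genes are thinly represented, since only called genes are listed. Of 31 stem and crypt progenitor markers OLFM4 is the only one in the table, and of 64 WNT ligands, receptors and feedback genes WNT10A is the only one. None of 42 cell cycle genes, 21 genes of BMP signalling (which limits crypt growth) or 20 genes of fetal-like epithelium is in the table (0 of each). Genes that are not listed are not analysed here, and nothing follows about their levels.

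Of 24 genes of the insulin-like growth factor axis, IGF2BP3 and PAPPA2 are in the table. PAPPA2 was at 1.83 ± 0.878 FPKM in PET, 2.30 ± 0.466 in ETEC and 0.501 ± 0.191 in CON (SD, n = 8 each), and it rose in ETEC vs CON (log2 fold change 2.19, adjusted p = 3.36e-05) and in PET vs CON (1.87, adjusted p = 0.000192), the comparison in which IGF2BP3 fell. PET vs ETEC gave -0.33 for PAPPA2 (adjusted p = 0.433). Of 15 oncofetal genes, IGF2BP3 is the only one listed.

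Of 23 genes of the EGF family and other epithelial growth factors, EREG and GDF15, a stress-induced cytokine of the TGF-beta family, are listed, and both rose in PET vs CON. EREG was at 4.41 ± 3.13 FPKM in PET, 2.11 ± 0.539 in ETEC and 2.26 ± 0.900 in CON (SD, n = 8 each). Its log2 fold change was 1.07 in PET vs ETEC (adjusted p = 0.0118) and 0.96 in PET vs CON (adjusted p = 0.0233), and PET-5 held 12.1 FPKM, the highest value. With TMM the PET vs ETEC call of EREG was lost (0.39, adjusted p = 0.285). GDF15 was at 4.22 ± 2.76 FPKM in PET, 3.31 ± 1.66 in ETEC and 1.89 ± 0.380 in CON, with a log2 fold change of 1.16 in PET vs CON (adjusted p = 0.0255) and 0.35 in PET vs ETEC (adjusted p = 0.512). In ETEC vs CON it had 0.81 (adjusted p = 0.0736) and passed with TMM (1.41, adjusted p = 0.0232). Of 21 Paneth and secretory lineage genes only MMP7, a matrix protease of Paneth cells in the mouse, is listed. It fell by 2.23 in PET vs ETEC (adjusted p = 0.00939) and by 1.83 in PET vs CON (adjusted p = 0.0295), with medians of 0.0760 FPKM in PET, 0.383 in ETEC and 0.426 in CON. MMP7 and OLFM4 thus both fell in both comparisons of PET. Of 13 genes listed for HGF and MET signalling, MACC1 and SH3D21 are in the table, and it is uncertain that SH3D21, an SH3 domain protein, belongs to that pathway. SH3D21 fell in ETEC vs CON (log2 fold change -0.91, adjusted p = 0.0225) and rose in PET vs ETEC (1.07, adjusted p = 0.0137), and both calls were lost with TMM (-0.17, adjusted p = 0.588, and 0.39, adjusted p = 0.261).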

How the data were processed

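Values came from 1 table of 24 jejunal libraries (8 PET, 8 ETEC, 8 CON; groups from titles). Per the file headers, the authors deposited a read count per gene and library, in whole numbers that are not normalized. The deposited FPKM, per the file headers, are scaled by gene length and mapped fragments. The authors' deposited table also holds log2 fold changes with p-value columns. The aligner, counter, build, annotation or strand setting is not given in the sources used here. The labels' protocols describe TRIzol extraction and enrichment for small RNAs, although the values are per gene.

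The quasi-likelihood test of edgeR 4.0.16 (R 4.3.3) was run on the counts (filterByExpr, 1 fit over 3 groups, Benjamini-Hochberg over the 577 genes that passed, threshold 0.05). Library sizes were relative depths, read from counts divided by FPKM in the 233 genes that reached 20 counts in every library. TMM was not the main scaling because only called genes are listed: it moved log2 fold changes by 0.61 (ETEC vs CON), -0.62 (PET vs ETEC) and -0.02 (PET vs CON) at the median. Alternatives used DESeq2 1.42.0, limma 3.58.1, other scalings and fewer libraries. Levels are FPKM, mean ± SD, and SE is that implied by the test. Libraries were called close to a sum where the best non-negative fit of 2 others (511 genes averaging 20 counts or more) left under 0.8 of the residual of the best single library. Permutations used 100000 resamples. Pairs of libraries of a group differed beyond sampling noise (84 pairs, chi-square per gene at least 30.1). Scripts were tested on simulated data.

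The members, the 23 gene lists (50 of 480 genes in the table) and the scaling were chosen with earlier results of these data known. Named genes were the members, the 5 genes most correlated with each (named in the table, averaging 1 FPKM or more), the listed genes of the growth and crypt lists, and the most abundant of the other lists. Symbols are the authors'. The reference table matched 0 of the 639 identifiers but 223 of 240 symbols, and its coordinates were not used. Results of the other marker lists are in the closing section.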

Additional observations from a re-analysis of the deposited data

Results flagged for a closer look

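OLFM4 in ETEC-8 stood at 396 FPKM, against 222 in ETEC-4, the next ETEC library, and 78.7 in the lowest. The gap to the next library was 0.547 of the range of the group, above Dixon's 95% critical value of 0.526 for 8 libraries. It was the only one of the 12 sets of 8 values (4 genes in 3 groups) with such a gap at either end, and chance alone gives about 5% of sets one. ETEC-8 is the ETEC library with 0 Y-linked counts. Dixon's test presumes normal and independent values. It was run here on FPKM without a log, and on a log scale the gap would be a smaller part of the range. ETEC-4, the next library, lies close to a sum with ETEC-8.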

How the results depend on the processing

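Of 38 alternatives per result, the direction of both PET comparisons held for OLFM4, IGF2BP3 and WNT10A in each one, but the calls did not. The 14-library fits (chosen in part after seeing the data) have fewer samples and ended all 6 calls of these genes. Their log2 fold changes by edgeR, edgeR with TMM, DESeq2 and voom were, for OLFM4, -1.43, -1.61, -1.43 and -1.31 in PET vs ETEC and -1.22, -0.99, -1.22 and -1.03 in PET vs CON. For IGF2BP3 they were -0.78, -1.01, -0.78 and -0.87, then -1.02, -1.05, -1.02 and -1.27. For WNT10A they were 0.94, 0.64, 0.94 and 0.81, then 1.47, 1.56, 1.48 and 1.62. Directions reversed for OLFM4 in ETEC vs CON (0.22, 0.62, 0.22 and 0.28) and MACC1 in PET vs CON (-0.15, -0.24, -0.15 and -1.17). Genes called in those fits were 0, 11, 79 and 48 in ETEC vs CON, 0, 0, 94 and 0 in PET vs ETEC, and 10, 13, 81 and 3 in PET vs CON; with edgeR 153, 163 and 156 had an unadjusted p under 0.05.

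With all 24 libraries, TMM and DESeq2 size factors reversed OLFM4 in ETEC vs CON (0.62 and 0.42) and IGF2BP3 there (0.41 and 0.22), called WNT10A there (1.27 and 1.06), and ended the calls of OLFM4 in PET vs CON (-0.86 and -0.94) and WNT10A in PET vs ETEC (0.46 and 0.64). DESeq2 size factors also ended that of IGF2BP3 in PET vs CON (-0.95). TMM called 208 genes higher and 89 lower in ETEC vs CON, and 162 in PET vs ETEC (76 higher, 86 lower). Voom called WNT10A (0.74) and MACC1 (1.49) in ETEC vs CON. Limma on log2(FPKM + 0.1) called MACC1 there (1.15) and lost WNT10A in PET vs ETEC (0.72), and with a pseudocount of 1 MACC1 was called (0.41), with 171 genes in PET vs ETEC. Fits of only the groups compared called MACC1 in ETEC vs CON (1.09), lost IGF2BP3 in PET vs ETEC (-0.90) and called 130 genes in PET vs CON. The cause was not tested. Over 24 in place of 14 libraries, r changed sign for OLFM4 and IGF2BP3 (0.0424, against -0.0356). It also did so for IGF2BP3 and MACC1 (0.0129, against -0.0962) and WNT10A and MACC1 (0.0150, against -0.219), pairs that are not read as relations because of the separate sets.

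Leaving out 1 library at a time gave, in the order ETEC vs CON, PET vs ETEC and PET vs CON, -0.39 to 0.15, -1.35 to -0.85 and -1.39 to -1.04 for OLFM4, -0.25 to -0.06, -1.18 to -0.76 and -1.34 to -0.93 for IGF2BP3, 0.49 to 0.88, 0.82 to 1.10 and 1.42 to 1.84 for WNT10A, and 0.93 to 1.29, -1.08 to -0.70 and 0.01 to 0.44 for MACC1. OLFM4 in ETEC vs CON took the other sign in 9 of these 24 fits. Leaving out a library of the group not compared hardly moves a fold change, so those fits test it little.

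A fit with the replicate block gave 0.88 for WNT10A in PET vs ETEC (adjusted p = 0.0581), which lost its call, and it changed no other call of the 4 genes. Same-numbered libraries correlated at -0.136 to 0.016, -0.062 to 0.38 and -0.383 to 0.621 in the 3 comparisons, and 0, 5 and 4 of 16 libraries correlated best with their own number, so the numbers were not taken to pair samples. WNT10A rests on few reads (6 to 81 counts per library), which limits what these depths can show. MACC1 does so only in its lowest libraries, with 17 counts in CON-5 and 30 in PET-5.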

Other observations

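Other marker lists, counted in the same fit, show where the tissue differed around the 4 genes. Of 18 brush border genes in the table, 17 rose and 0 fell in PET vs ETEC, 1 rose and 14 fell in ETEC vs CON, and 3 rose and 0 fell in PET vs CON. With TMM these were 15 and 0, 1 and 13, and 2 and 0. Of 7 ileum and colon markers, 6 rose in PET vs ETEC, 6 fell in ETEC vs CON and 1 fell in PET vs CON, also with TMM. Of 3 T and NK cell markers, 2 rose (GZMA and GZMM) and 1 fell (KLRF1) in PET vs ETEC, 2 fell in ETEC vs CON and 1 fell in PET vs CON; with TMM the same counts were 0 and 1, 0, and 1. The macrophage receptor TREM2 rose in ETEC vs CON and in PET vs CON. The eosinophil receptor CCR3 fell in ETEC vs CON (adjusted p = 0.0491) but not with TMM (adjusted p = 0.355). Of 6 liver genes, 1 rose and 4 fell in ETEC vs CON, 0 passed in PET vs ETEC, and 1 rose in PET vs CON. With TMM 1 rose and 2 fell in ETEC vs CON, 0 passed in PET vs ETEC, and 1 rose and 2 fell in PET vs CON. No marker of smooth muscle and stroma, enteric neurons and glia or squamous epithelium is in the table (0 of 20, 0 of 13 and 0 of 14). Fitted on only the 14 libraries that are no sum of others, edgeR called 10 genes of the whole table for PET vs CON (156 at an unadjusted p under 0.05), 0 for PET vs ETEC (163) and 0 for ETEC vs CON (153). These lists were chosen with results known, and the table holds only genes called in these libraries, so the counts are not independent evidence of a direction.

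Y-linked counts were in step with the source libraries of some sums. PET-3, close to a sum of PET-8 and PET-6, had 3383 counts over 7 loci, against 1 in PET-8 and 7774 in PET-6. WNT10A in the same libraries was 0.913 FPKM in PET-3, 0.243 in PET-8 and 1.42 in PET-6. IGF2BP3 was 5.01 FPKM in PET-3, 7.78 in PET-8 and 1.51 in PET-6.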
